A study of Mus musculus with 16 samples.

Results

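The 10 macrophage genes Csf1r, Cd68, Mrc1, Cd163, Msr1, Marco, C1qa, C1qb, C1qc and Cd14 were followed through 16 RNA-seq samples of mouse seminal vesicle (SV). They were taken by name from a table of 31274 genes, and all 10 were found in it. Male C57BL/6 mice were wild type (WT) or αERKO, a line in which Esr1, the gene of oestrogen receptor α, is disrupted in all tissues and not in macrophages alone. Pups received diethylstilbestrol (DES), a synthetic oestrogen, at 2 µg per day under the skin on days 1 to 5 after birth, or the corn oil vehicle (veh). The SV was taken at week 5, freed from the anterior prostate, and the groups were WT-veh and WT-DES, and their αERKO counterparts αERKO-veh and αERKO-DES, with 4 samples each. By the methods, RNA came from single mice except in WT-DES, where mice were pooled, so a WT-DES sample may average several animals. The number of pools in the methods does not match the 4 WT-DES samples, so the sources used here do not establish that these 4 are independent.

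Macrophages are phagocytes of myeloid origin that live in most tissues, and others arrive as blood monocytes when a tissue is inflamed. They depend on signals through the receptor Csf1r, take up particles and debris through scavenger receptors, and make most of the C1q that starts the classical complement pathway. The 10 genes cover these roles: the growth factor receptor Csf1r, the endosomal glycoprotein Cd68, the uptake receptors Mrc1 (mannose receptor), Cd163 (haemoglobin-haptoglobin receptor), Msr1 and Marco (class A scavenger receptors), the 3 chains of C1q, and Cd14, the co-receptor that hands lipopolysaccharide to Tlr4.

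In every WT-DES sample all 10 genes were above all 12 other samples, as were 24.2% of the 15988 tested genes. DES gave no such difference in αERKO. In WT, the mean level with DES was 3.04 to 13 times that with vehicle. In αERKO, 0 of the 8 genes that could be called were called with DES, in a comparison where 0.0876% of all tested genes were called higher and 1.41% lower. Levels are FPKM, the fragments of a gene divided by its exon length and by all mapped fragments, which are per length and can be set beside each other between genes. In RNA of a whole tissue, more macrophages and more RNA of these genes per macrophage cannot be told apart.

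The samples were checked first. Esr1, the disrupted gene, had a mean of 3.87 ± 0.802 FPKM (SD, n = 4) with vehicle and 14.3 ± 4.59 with DES in WT, and of 1.52 ± 0.195 and 1.30 ± 0.334 in αERKO, where all 8 samples were under the lowest WT sample. The 5 SV secretion markers summed to 37271 to 43564 FPKM with vehicle and 2138 to 6597 with DES in WT, and to 20980 to 33700 and 22858 to 44422 FPKM in αERKO, so the tissue's own markers were present in all 16 samples and lowest in WT-DES. Read depth cannot be had from FPKM. The sum of FPKM over all genes was 375207 to 437619 in WT-DES and 479045 to 652708 in the other groups. The 4 samples of a group were treated as replicates, and p-values measure the spread between them, which in WT-DES may be in part technical if samples share a pool.

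A pair of stretches before the start site show what the control regions of these genes look like, one for a C1q chain and one for Cd68, the genes of an extracellular and an endosomal protein that moved together. Both are the 250 bases before the RefSeq start site on GRCm38.p6, written along the gene's own strand, C1qb at chr4:136886201-136886450 and Cd68 at chr11:69666171-69666420, both minus. Capitals mark GAGGAA, a core sequence bound by the myeloid factor PU.1 (the product of Spi1), on either strand, and TGANTCA, the sequence bound by AP-1.
C1qb: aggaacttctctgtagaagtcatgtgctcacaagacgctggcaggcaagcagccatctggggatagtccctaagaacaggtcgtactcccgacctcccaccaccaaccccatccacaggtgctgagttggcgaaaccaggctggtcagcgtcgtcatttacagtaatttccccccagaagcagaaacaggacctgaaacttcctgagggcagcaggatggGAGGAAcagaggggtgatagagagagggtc
Cd68: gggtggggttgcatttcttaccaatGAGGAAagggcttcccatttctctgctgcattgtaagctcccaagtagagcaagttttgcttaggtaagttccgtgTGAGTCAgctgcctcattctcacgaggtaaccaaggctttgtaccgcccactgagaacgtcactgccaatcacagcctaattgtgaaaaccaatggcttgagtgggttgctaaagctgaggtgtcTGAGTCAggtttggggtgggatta

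Such a window was at hand for 6 members. GAGGAA or its reverse complement was found in 5 of these 6 (Cd68, Mrc1, Marco, C1qb and C1qc, not Cd163) and in 23.3% of 32851 promoter windows of the same length. TGANTCA was found in 1 of the 6, Cd68, and in 6.75% of all windows. The oestrogen response element, GGTCA and TGACC separated by 3 bases, was found in 0 of the 6 and in 21 of all windows. These matches describe letters in a window and not binding.

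The C1q genes lie side by side on mouse chromosome 4 (GRCm38, GENCODE M21, all on the minus strand): C1qb from 136880129 to 136886187, C1qc from 136889804 to 136893065 and C1qa from 136895917 to 136898803. Csf1r is on chromosome 18 from 61100598 to 61132149 (plus strand) and Cd14 on the same chromosome from 36725067 to 36726798 (minus). Cd68 is on chromosome 11 from 69664213 to 69666153 (minus), Mrc1 on chromosome 2 from 14229392 to 14332057 (plus) and Cd163 on chromosome 6 from 124304656 to 124330527 (plus). Msr1 is on chromosome 8 from 39581685 to 39642673 (minus) and Marco on chromosome 1 from 120474538 to 120505024 (minus).

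**Figure D1:**
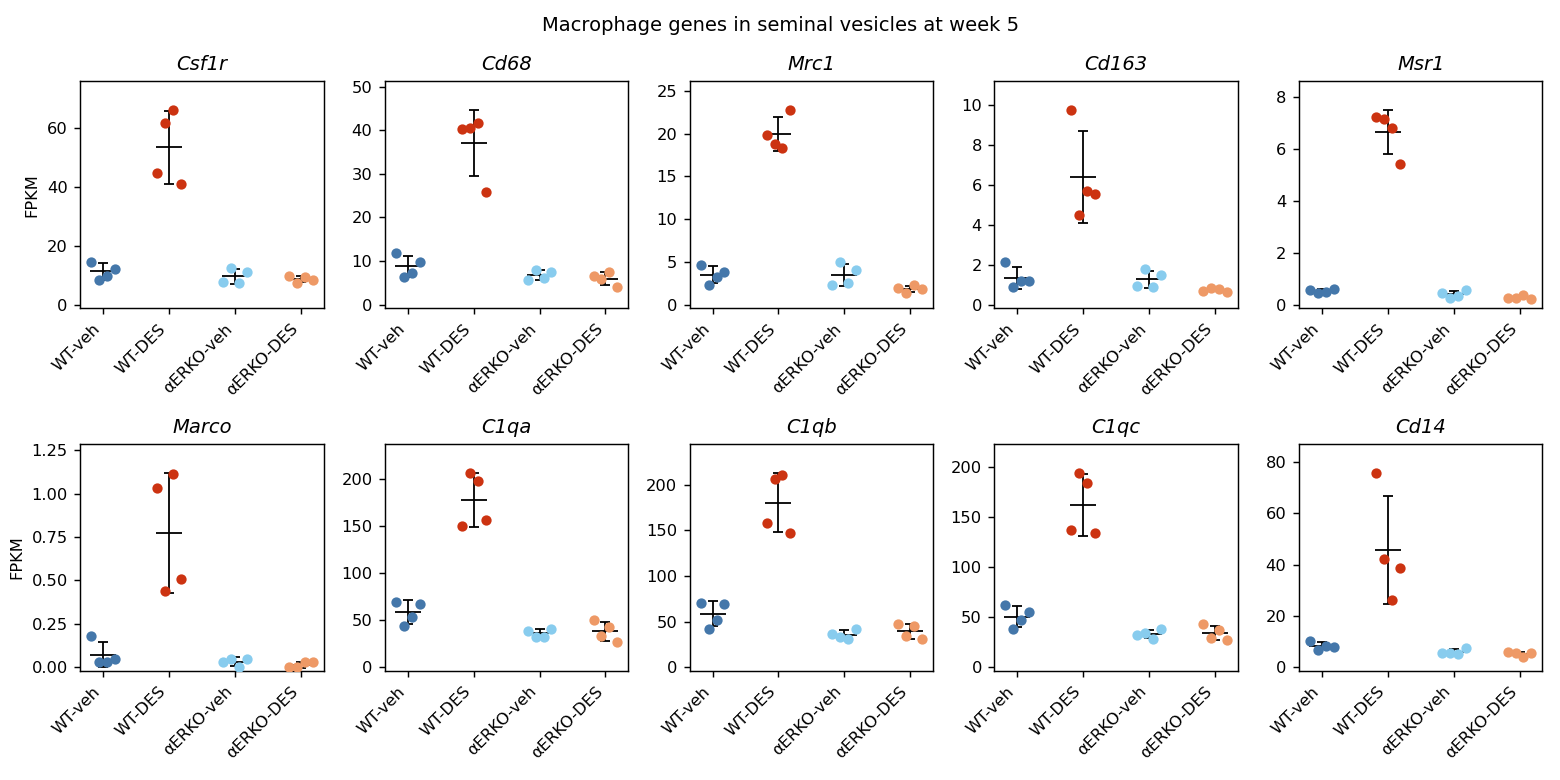
FPKM of the 10 macrophage genes (y axis, linear, a scale of its own in each panel) in the 4 groups on the x axis. Points are samples 1 to 4 from left to right, the horizontal bar is the group mean and the error bar 1 SD (n = 4). In every panel the 4 WT-DES samples lie above the 12 other samples, as they do for 24.2% of the 15988 tested genes.

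Csf1r, the receptor for Csf1 and Il34, had 14.6, 8.47, 9.63 and 12.2 FPKM in the 4 WT-veh samples and, with DES, 44.6, 61.7, 66.0 and 41.1. The αERKO-veh samples had 7.56, 12.5, 7.20 and 11.1 FPKM and the αERKO-DES samples 9.79, 7.23, 9.33 and 8.19. The WT-DES samples stood apart from all others, and the other 3 groups overlapped. In WT, the mean rose 4.76-fold with DES, a change of 2.15 in log2(FPKM + 1) (SE 0.20, limma adjusted p = 1.97e-07). In αERKO the change was -0.11 (SE 0.20, limma adjusted p = 0.771).

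Cd68, a glycoprotein of late endosomes and lysosomes, had 11.8, 6.30, 7.31 and 9.72 FPKM in WT-veh and 40.4, 40.5, 41.6 and 25.8 in WT-DES. Without DES, αERKO had 5.61, 7.89, 6.15 and 7.55 FPKM, and with DES 6.56, 5.84, 7.41 and 3.91. In WT-DES, samples 1 to 3 lay close together and sample 4 lay far below them, though still above all WT-veh samples. The mean rose 4.23-fold in WT with DES (log2 change 1.97, SE 0.20, limma adjusted p = 6.21e-07).

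Among the uptake receptors, Mrc1 had 4.57, 2.27, 3.24 and 3.86 FPKM in WT-veh, and 19.9, 18.8, 18.4 and 22.8 in WT-DES. The αERKO-veh values were 2.26, 4.97, 2.47 and 4.09 FPKM and the αERKO-DES values 1.88, 1.39, 2.26 and 1.81. Mrc1 was the steadiest member in WT-DES, with a coefficient of variation of 9.91%, and the most scattered tested member in αERKO-veh, with 37.8%. Its rise in WT was 5.72-fold (log2 change 2.25, SE 0.19, limma adjusted p = 9.93e-08).

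Cd163 had 2.13, 0.89, 1.17 and 1.18 FPKM in WT-veh and 9.72, 4.50, 5.66 and 5.55 in WT-DES. In αERKO it had 0.92, 1.78, 0.90 and 1.47 FPKM with vehicle and 0.70, 0.83, 0.77 and 0.65 with DES. In WT-DES sample 1 stood well above the other 3 samples, which were still above all samples of the other groups. The rise in WT was 4.74-fold (log2 change 1.63, SE 0.20, limma adjusted p = 3.33e-06).

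Msr1, a receptor for modified lipoproteins, was low outside WT-DES, with 0.56, 0.43, 0.47 and 0.58 FPKM in WT-veh. In αERKO it had 0.46, 0.25, 0.32 and 0.56 FPKM with vehicle and 0.25, 0.25, 0.38 and 0.20 with DES. In WT-DES it had 7.22, 7.12, 6.79 and 5.39 FPKM. With DES in WT its mean rose 13-fold (log2 change 2.33, SE 0.11, limma adjusted p = 4.52e-10). It entered the test through WT-DES alone, since genes needed a mean above 1 FPKM in at least 1 group, so a difference was a condition of its being tested.

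Marco did not enter the test. It had 0.18, 0.03, 0.03 and 0.05 FPKM in WT-veh and 1.03, 0.44, 1.11 and 0.51 in WT-DES. It was listed at 0 in 1 αERKO-veh sample and in 2 αERKO-DES samples, and reached at most 0.05 FPKM in αERKO. All WT-DES samples were above all others, at levels that remain low for this tissue.

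The 3 C1q chains were the most abundant members in all 4 groups. C1qa had 69.8, 43.3, 53.2 and 67.6 FPKM in WT-veh, and 150.4, 206.4, 198.2 and 156.0 in WT-DES. The values in αERKO were 38.3, 32.6, 31.9 and 40.6 FPKM with vehicle and 50.2, 33.4, 42.5 and 27.1 with DES. The WT-DES samples were all above the WT-veh samples, and the αERKO-veh samples were all below them. C1qb and C1qc followed C1qa closely. C1qb had means of 58.5 ± 13.9 (SD, n = 4), 180.3 ± 32.6, 35.8 ± 4.90 and 39.2 ± 8.10 FPKM in the order of WT-veh and WT-DES, then αERKO-veh and αERKO-DES, and C1qc 50.4 ± 10.3, 161.7 ± 31.3, 33.0 ± 3.9 and 34.0 ± 7.28. With DES in WT the rises were 3.04-fold for C1qa, 3.08-fold for C1qb and 3.21-fold for C1qc, the smallest of the 10 genes as a ratio of means (log2 changes 1.60, 1.62 and 1.66, SE 0.17 to 0.19, limma adjusted p 6.86e-07 to 2.11e-06). On the log2 scale Cd163, at 1.63, was below C1qc. Over all alternatives run, the log2 change ranged from 1.47 to 2.28 for C1qa, 1.48 to 2.30 for C1qb and 1.54 to 2.28 for C1qc. For Csf1r it ranged from 1.98 to 2.57, so the size of the C1q rises depended on the processing. The mean C1qa level exceeded that of 87.3% of the 15988 tested genes in WT-veh and of 98.6% in WT-DES.

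Cd14 had 10.1, 6.73, 8.33 and 8.06 FPKM in WT-veh and 75.7, 42.1, 26.2 and 38.8 in WT-DES. The αERKO samples had 5.63, 5.73, 5.11 and 7.37 FPKM with vehicle and 5.84, 5.35, 3.96 and 5.42 with DES. The WT-DES samples did not overlap with the others but differed among themselves more than for any other tested member, with a coefficient of variation of 46.2%. The mean rose 5.50-fold (log2 change 2.24, SE 0.23, limma adjusted p = 6.31e-07).

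Differences were called (differentially expressed genes, DEGs) where limma gave an adjusted p up to 0.05, the means differed 1.5-fold or more and 1 of the groups compared had a mean above 1 FPKM. In WT-DES versus WT-veh, the 8 members that passed the minimum without WT-DES were all DEGs and higher, as was Msr1, which passed through WT-DES alone, where 28.9% of the 15988 tested genes were higher DEGs and 23.9% lower DEGs. The median log2 change was 1.82 over the 8 members and -0.01 over all tested genes. Scaling the samples to equal totals without the 20 most abundant genes moved the latter median to 0.37, and the 9 members were called under that scaling as well. In every WT-DES sample, all 10 members were above all WT-veh samples, as were 32.7% of the tested genes, and above all 12 other samples, as were 24.2%. Between 1.98% (Msr1) and 6.42% (C1qa) of the tested genes had a larger log2 change than the member, so the members were among the genes with larger rises but not at the top.

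**Figure D2:**
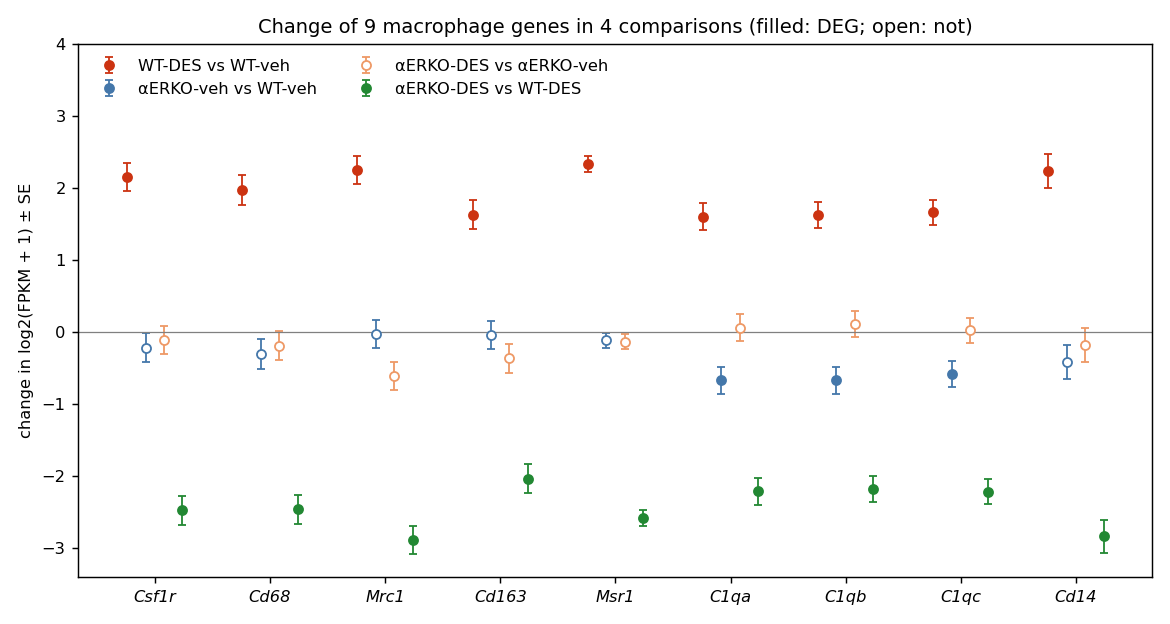
Change in log2(FPKM + 1) (y axis, ± SE of the limma model) of the 9 tested members (x axis) in 4 comparisons. Filled points are DEGs and open points are not. WT-DES versus WT-veh runs from 1.60 to 2.33 and αERKO-DES versus WT-DES from -2.04 to -2.89, and in αERKO-DES versus αERKO-veh all 9 points are open, Msr1 being below the level at which it could be called.

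In αERKO-DES versus αERKO-veh, 0 of the 8 members that could be called were DEGs by limma (Msr1 was below 1 FPKM in both groups), where 0.0876% of tested genes were higher and 1.41% lower DEGs. At an unadjusted limma p of at most 0.05 there was 1 of 9, Mrc1, beside 25.3% of all tested genes, with a log2 change of -0.61 (SE 0.19, limma adjusted p = 0.0842). Its mean was 3.45 ± 1.30 FPKM (SD, n = 4) in αERKO-veh and 1.84 ± 0.357 in αERKO-DES, with 1 shared value of 2.26 between the groups. Cd163 had a log2 change of -0.37 (SE 0.20, limma adjusted p = 0.260), a mean 1.72-fold lower, with no overlap between the groups, where 6.57% of the tested genes had every sample with DES below every one without. The C1q chains had changes of 0.06, 0.12 and 0.03, all smaller than their SE.

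In αERKO-DES versus WT-DES, the same 8 members and Msr1 were DEGs and lower, where 29.6% of tested genes were lower and 23.7% higher DEGs. The changes in log2(FPKM + 1) ran from -2.04 (Cd163) to -2.89 (Mrc1), while as a ratio of means C1qb differed least of the 10 (4.60-fold), and Msr1 (24.6-fold) differed more than Mrc1 (10.9-fold), and the 10 members had no overlap between these groups, as had 32.7% of the tested genes in that direction. The difference between the DES responses of the genotypes was tested as an interaction, the change in WT minus the change in αERKO. The 8 members and Msr1 passed it with a positive value, where 29.6% of tested genes passed with a positive and 26.9% with a negative value. In log2(FPKM + 1), which understates changes of low genes such as Msr1, the interaction ran from 1.51 for C1qb (SE 0.26, limma adjusted p = 0.000115) to 2.86 for Mrc1 (SE 0.27, limma adjusted p = 5.24e-07).

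Without DES, the C1q chains were lower in αERKO-veh than in WT-veh. C1qa fell by 0.67, C1qb by 0.67 and C1qc by 0.58 on the log2 scale (SE 0.17 to 0.19, limma adjusted p = 0.0193, 0.0181 and 0.0251), with no overlap between the 4 and 4 samples. Of tested genes, 2.63% were lower and 4.5% higher DEGs in this comparison, and 17.1% had every αERKO-veh sample below every WT-veh sample. In the same comparison 3 of 6 skeletal muscle markers (median log2 change 2.75) and 2 of 5 endothelium markers were higher DEGs, with none in the other lists of tissue and cell type markers, and their part in the C1q levels was not tested. The other 5 members that could be called were not DEGs, nor was Msr1, which was below 1 FPKM in both groups, with log2 changes from -0.03 (Mrc1) to -0.42 (Cd14). Leaving out WT-veh sample 4 or αERKO-veh sample 2 brought the 3 C1q calls to 0, leaving out WT-veh sample 1 to 1, and a correction for transcript length gave changes of -0.36, -0.36 and -0.29 with no call.

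In αERKO-DES versus WT-veh, 0 of the 8 members that could be called were DEGs by limma (1.21% of tested genes were higher and 1.97% lower DEGs), and the unadjusted p of 7 of 9 was at most 0.05, as was that of 26.4% of all tested genes. All 9 log2 changes were negative, from -0.25 (Msr1) to -0.64 (Mrc1, limma adjusted p = 0.0537), against a median of -0.03 over all tested genes. As a ratio of means, Csf1r fell least of the 9 (1.30-fold), and Msr1 (1.89-fold) fell nearly as much as Mrc1 (1.90-fold). With 1 sample left out the number of calls ranged from 0 to 4, the highest without WT-veh sample 2.

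In the FPKM as deposited, the members did not rise in equal measure. Each was set against Csf1r in the same sample, as a ratio of FPKM after adding 0.1 to both, and compared by an exact two-sided permutation test over the 70 arrangements of 4 against 4 samples, whose smallest p is 0.0286. There were 22 such tests (11 ratios in 2 comparisons), and their p-values are not adjusted. Because both genes of a ratio share the scaling of their sample, a change of scale does not touch it except through the 0.1 added. A correction that differs between genes, such as that for transcript length, can change a ratio. The ratios were not run under the length correction or quantile normalization.

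The ratio of C1qa to Csf1r was 4.76, 5.06, 5.47 and 5.52 in WT-veh and 3.37, 3.34, 3.0 and 3.79 in WT-DES. The groups did not overlap, and the mean log2 ratio of WT-DES minus that of WT-veh was -0.63 (exact permutation p = 0.0286). For C1qb and C1qc the differences were -0.61 and -0.56, also with no overlap (exact permutation p = 0.0286 for each). Lower ratios were not confined to WT-DES. In αERKO-veh the C1qa to Csf1r ratio was 5.01, 2.60, 4.39 and 3.65 and the C1qb to Csf1r ratio 2.68 to 4.82, overlapping both WT groups. In αERKO-DES the C1qb to Csf1r ratio ran from 3.75 to 4.84, above the 3.19 to 3.58 of WT-DES (exact permutation p = 0.0286), and the C1qa ratio overlapped (exact permutation p = 0.114). With 1 added in place of 0.1, the log2 ratio of WT-DES minus that of αERKO-DES was -0.30 for C1qb and -0.26 for C1qc (exact permutation p = 0.0857 for each).

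Msr1 went the other way. Its ratio to Csf1r was 0.0449, 0.0618, 0.0586 and 0.0554 in WT-veh and 0.164, 0.117, 0.104 and 0.133 in WT-DES, a 2.33-fold higher ratio with no overlap (exact permutation p = 0.0286). This rests on low values in WT-veh: with 1 added in place of 0.1 the log2 difference was 0.18 (exact permutation p = 0.400), and with 0.01 added it was 1.42. For Cd68, Mrc1, Cd163 and Cd14 the groups overlapped, with log2 differences from -0.16 to 0.28 (exact permutation p from 0.229 to 0.857). The ratio of Marco is set by the constant added, with a log2 difference of -1.45 with 1 added and 1.22 with 0.01, and nothing is read from it. Between WT-DES and αERKO-DES, the Mrc1 to Csf1r ratio differed without overlap, at 0.279 to 0.555 against 0.200 to 0.250 (exact permutation p = 0.0286, and p = 0.171 with 1 added). The Msr1 to Csf1r ratio was 3.04-fold higher in WT-DES than in αERKO-DES, also without overlap (exact permutation p = 0.0286, and p = 0.571 with 1 added).

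The 3 chains of C1q kept to each other. The ratio of C1qa to C1qb was between 0.874 and 1.07 in all 16 samples, and that of C1qc to C1qb between 0.795 and 1.01. Neither ratio differed between WT-DES and WT-veh or between WT-DES and αERKO-DES beyond the spread of the samples (exact permutation p from 0.457 to 0.629).

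**Figure D3:**
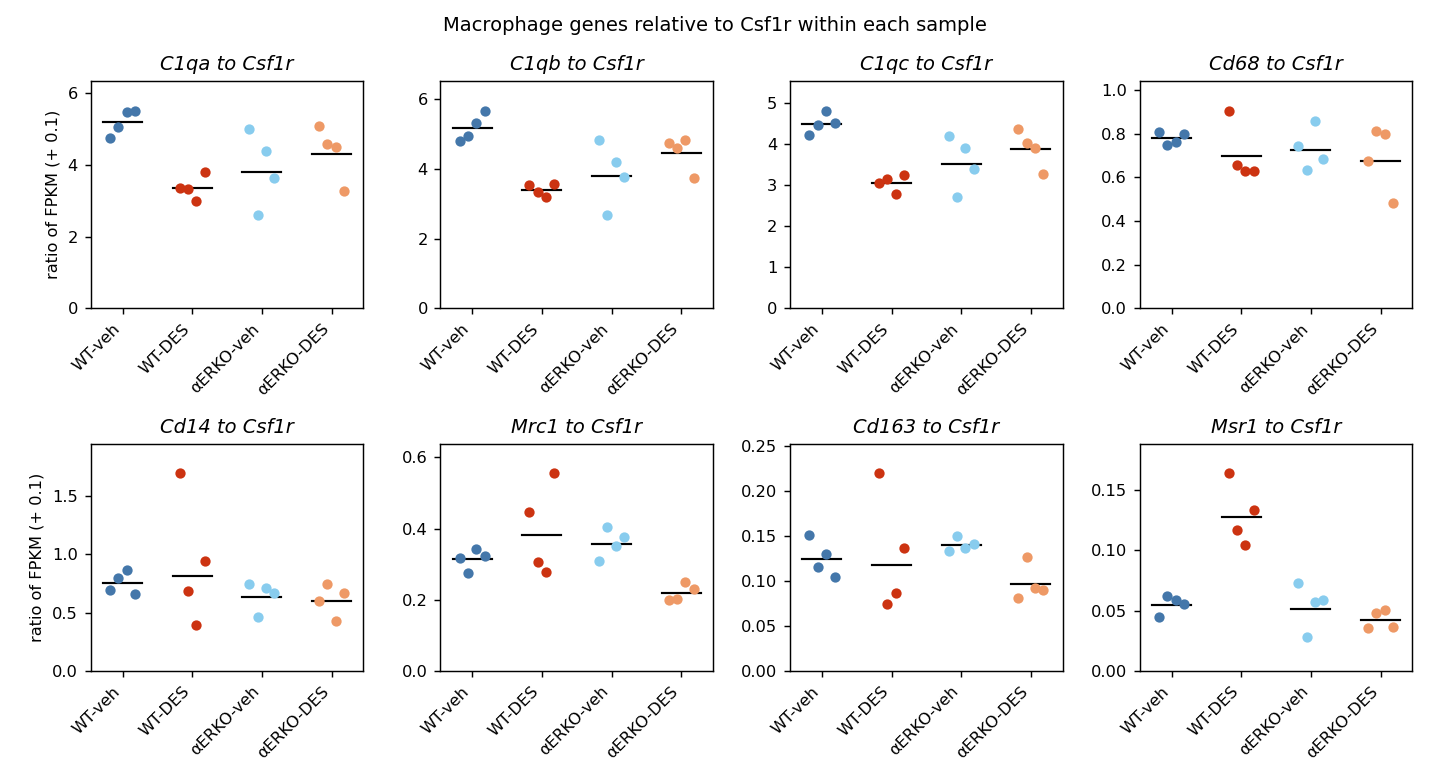
Ratio of each member's FPKM to that of Csf1r in the same sample, with 0.1 added to both (y axis, linear from 0), by group (x axis). Points are samples 1 to 4 from left to right and the line is the geometric mean. The 3 C1q ratios are lower in all WT-DES samples than in all WT-veh samples, the Msr1 ratio is higher, and Cd14 and Cd163 are highest in WT-DES sample 1.

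Within the WT-DES group, the samples were ordered differently by different members. Csf1r and the C1q chains were highest in samples 2 and 3, Cd14 and Cd163 in sample 1, and Mrc1 in sample 4, where Cd68 and Msr1 were lowest. The 9 neutrophil markers found in the table (S100a8, S100a9, Mpo, Elane, Cxcr2, Csf3r, Retnlg, Camp and Ngp) were higher DEGs in WT-DES, but 7 of them passed the minimum only through WT-DES and had to differ, all but S100a8 and Retnlg. They summed to 967.6 FPKM in WT-DES sample 1 and 118.4 to 234.5 in the other WT-DES samples, against 3.20 to 5.30 without DES, and to 1.26 to 2.93 (vehicle) and 1.07 to 1.68 (DES) in αERKO, where Mpo, Elane, Cxcr2, Camp and Ngp averaged near 0. Cd14, which neutrophils and monocytes also carry, was 75.7 FPKM in that sample, and the part of neutrophils in its level was not tested. The log2 change of Cd14 in WT was 1.96 to 2.46 when any 1 sample was left out.

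The 5 T cell markers and the 4 tested B cell markers were also higher DEGs in WT-DES, 2 of the former and all 4 of the latter having passed the minimum only through WT-DES. The T cell markers summed to 83.4 and 76.1 FPKM in samples 2 and 3, where Csf1r and C1q were highest, and to 16.7 and 23.2 in samples 1 and 4. Ptprc, the leukocyte common antigen CD45, rose from 2.57 ± 0.880 FPKM (SD, n = 4) in WT-veh to 32.2 ± 12 in WT-DES (log2 change 3.18, SE 0.22, limma adjusted p = 1.27e-08), and had 2.85 ± 0.503 and 2.17 ± 0.259 FPKM in αERKO with vehicle and with DES. Markers of other tissue parts moved too: 6 of 6 fibroblast and 5 of 5 endothelium markers were higher, and 4 of 6 epithelium and 5 of 5 SV secretion markers lower, in WT with DES, beside 28.9% higher and 23.9% lower DEGs over all tested genes. Skeletal muscle markers were lower DEGs in 2 of 6 cases, with sums of 551.5 to 1312 FPKM with vehicle and 33.2 to 324.2 with DES in WT. In αERKO these sums were 557.0 to 1523 and 475.8 to 673.8 FPKM, with 4 of 6 lower DEGs with DES. Mast cell markers were higher in 5 of 5 cases, with summed levels of 8.57 to 18.1 FPKM with vehicle and 31.7 to 40.4 with DES in WT, and of 7.02 to 15.8 and 3.5 to 7.28 in αERKO. The 7 dendritic cell markers, 5 of which passed the minimum only through WT-DES, were higher, with sums of 4.44 to 6.60 FPKM with vehicle and 17.1 to 46.2 with DES in WT, and at most 6.51 in αERKO. The 4 tested NK cell markers, which all passed only through WT-DES, summed to 1.00 to 2.05 and 4.65 to 13.9 FPKM in WT and to at most 1.43 in αERKO. The part of these shifts in the levels of the 10 members was not tested.

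In the αERKO groups, Mrc1, Cd163 and Csf1r were highest in αERKO-veh sample 2. That sample also had the highest sum of 6 adipose markers (Adipoq, Plin1, Lep, Cfd, Fabp4 and Cidec), at 1044 FPKM, where the other αERKO-veh samples had 88.2 to 432.8 and the αERKO-DES samples 17 to 61.0, and it had the highest sums of fibroblast (980.0 FPKM) and endothelium (101.1 FPKM) markers of its group. In WT the sums were 208.2 to 1042 with vehicle and 824.8 to 1898 with DES. The order of samples was not shared there: the highest sum of WT-DES was in sample 4, with the highest Mrc1 but 5.55 FPKM of Cd163, whose highest value was in sample 1, and the highest sum of WT-veh was in sample 4, while Mrc1, Cd163 and Csf1r were highest in sample 1. Of the adipose markers, 4 of 6 were lower DEGs in αERKO-DES than in αERKO-veh, beside 1.41% of all tested genes, in a comparison with 1 to 653 DEGs when 1 sample was left out. In WT, 4 of 6 were higher DEGs with DES, or 3 of 5 without Lep, which passed the minimum only through WT-DES, beside 28.9% of all tested genes. The part of fat tissue in the levels of Mrc1 and Cd163 was not tested.

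**Figure D4:**
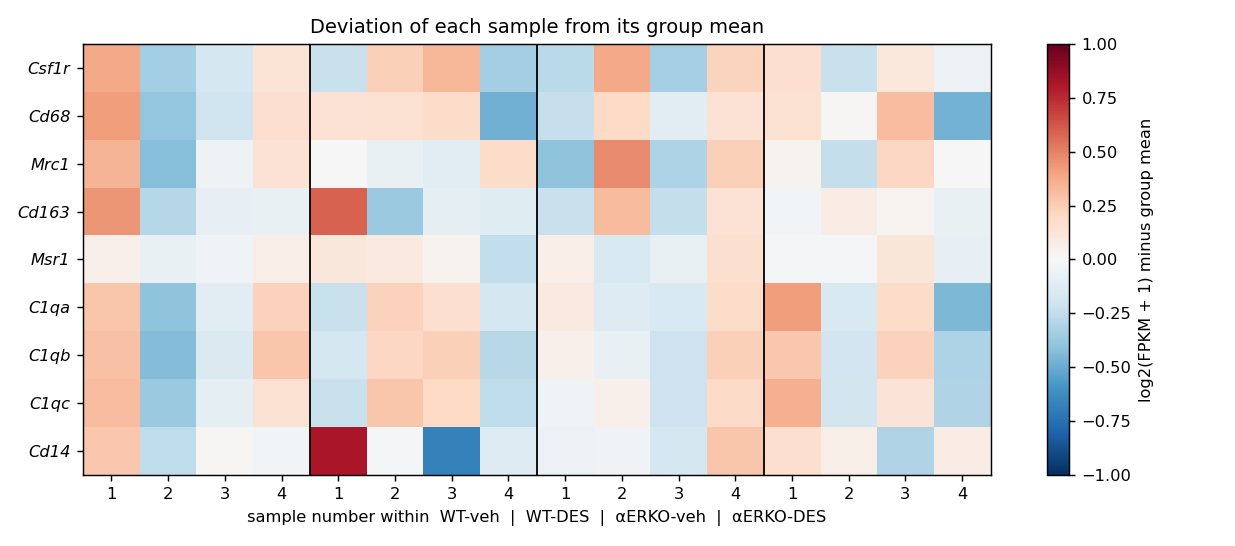
Deviation of each sample from its own group's mean in log2(FPKM + 1) (colour scale, red above and blue below) for the 9 tested members (y axis) in the 16 samples (x axis, samples 1 to 4 of each group). WT-veh sample 1 and αERKO-veh sample 4 are above the mean for 9 of 9 members, WT-veh sample 2 and αERKO-veh sample 3 for 0, and in WT-DES the members split.

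Within groups the members tended to move together. Across the 16 deviations from group means, the correlation of each member with the mean of the other 8 was highest for Cd68 (r = 0.86), C1qc (0.81) and C1qb (0.79) and lowest for Cd14 (0.17). Outside the members, the genes whose deviations were most like the mean of the 9 members over the 16 samples were Lyz2 (r = 0.95), Selplg (0.90), Cd53 (0.90), Tbxas1 (0.85), Rac2 (0.84), Spi1 (0.83), Tifa (0.83), Cul9 (0.82), Fcer1g (0.82) and Tgfbi (0.82), where the median over tested genes was 0.04 and the 99th percentile 0.63. These correlations describe samples that share tissue composition and scaling. Of the 10 genes, 9 were higher DEGs in WT-DES, and Cul9 had a log2 change of -0.20. Lyz2, the macrophage and neutrophil lysozyme, rose from a mean of 84.0 to 374.6 FPKM.

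Around the 10 members, 13 lists of genes of macrophage biology were read in the same fit, against the 28.9% higher and 23.9% lower DEGs over all tested genes in WT-DES versus WT-veh. Of the 100 different genes tested in these lists, 14 passed the minimum of 1 FPKM only through WT-DES and had to differ. Of the ligand and GM-CSF list, 3 of 4 tested genes rose, with Csf1, the main ligand of Csf1r, at a log2 change of 1.32, Csf2rb at 0.95 and Csf2ra at 0.81, and Il34, the other ligand of Csf1r, was not a DEG at 0.18. The 9 myeloid transcription factors rose, of which Spic passed the minimum only through WT-DES, among them Spi1 (PU.1) at 2.28 and Irf5 at 1.97. The median was 0.88 over the ligand list and 1.43 over the transcription factors without Spic.

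Of the 12 other genes listed as pan-macrophage 11 rose, with a median log2 change of 2.12. Cybb, a subunit of the phagocyte oxidase, changed by 2.63, the protease Ctss by 2.50 and Laptm5 by 2.38, and Mertk, a receptor for apoptotic cells, was not a DEG at -0.26. The 4 Fcγ receptors rose, with Fcgr4, which passed only through WT-DES, at 3.25, Fcgr2b at 2.92 and Fcgr3 at 2.33. Of 8 genes of tissue-resident macrophages 6 rose, or 5 of 7 with a median of 1.12 without Timd4, which passed only through WT-DES, led by F13a1 at 1.52, Stab1 at 1.46 and Cbr2 at 1.25. Of 6 monocyte genes 4 rose, 2 of which passed only through WT-DES, and 1 fell, with the chemokine receptor Ccr2 at 3.14, Chil3 at 2.29 and Plac8 at -0.79. Chil3 and Plac8 are not specific to monocytes. Several of the pan-macrophage and Fcγ receptor genes, such as Cybb and Laptm5, are also made by other leukocytes. The part of these cells in their levels was not tested.

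Of the 8 tested genes of the classical activation list, 5, with Il1b (log2 change 4.14) among them, passed the minimum only through WT-DES. The other 3 rose as well, with Cxcl9 at 3.81, Cxcl10 at 3.17 and Cd86 at 1.58. Of the alternative activation list 7 of 8 rose, 2 of which passed only through WT-DES, with Il4ra at 2.64 and Chil3 at 2.29, and the median over the other 6 was 1.51. Il1b and Il4ra are also made by other leukocytes, and the part of these in their levels was not tested.

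The lists closest to single members were mixed. The other scavenger receptors rose in 7 of 7 cases, of which Olr1 passed the minimum only through WT-DES, with Scara3 at 1.89, Colec12 at 1.79 and Cd36 at 1.75. Fibroblast and endothelium markers rose as well (6 of 6 and 5 of 5, beside 28.9% of all tested genes). The part of these cells in the levels of the scavenger receptors was not tested. Of the lipid and lysosome list 5 of 10 rose and 1 fell, or 4 of 9 without Spp1, which passed only through WT-DES, with Spp1 at 3.01, Lgals3 at 2.77, Trem2 at 2.32 and Fabp5 at -1.01, while the cathepsins Ctsb, Ctsd and Ctsl were not DEGs, at 0.21, -0.48 and -0.37. Of the partners of C1q, 4 of 9 rose and 4 fell. C1s, the serine protease of the C1 complex, changed by 1.77 and its inhibitor Serping1 by 1.19. The receptors Lrp1 and Cd93 changed by 1.79 and 1.26. Calr and C1qbp, which were listed for binding C1q and also have roles inside the cell, changed by -1.84 and -0.80. C1rb changed by -3.04 and Gm5077 (C1s2) by -2.25. C1rb and Gm5077 are near-identical copies of C1ra and C1s, so the split of fragments within these pairs is uncertain.

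The list of Cd14 partners held genes of lipopolysaccharide sensing and Tlr2, a receptor for bacterial lipoproteins. Of its 10 genes 5 rose and 3 fell, and without Ticam2, which passed only through WT-DES, 4 of 9 rose. Tlr2 changed by 2.38, Lbp by 1.30 and Ticam2 by 1.23, and Ticam1 by -1.08 and Irak1 by -0.98. Tlr4 itself changed by 1.12 and its partner Ly96 by -0.68. Of the haemoglobin and iron list, which holds what happens after uptake by Cd163, 3 of 8 rose and 2 fell: the iron exporter Slc40a1 changed by 2.44, Slc11a1 by 1.98 and the haem-degrading enzyme Hmox1 by 1.5, and the ferritin chains Fth1 and Ftl1 by -0.73 and -0.64. Ferritin genes have many processed copies, which makes their values uncertain.

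**Figure D5:**
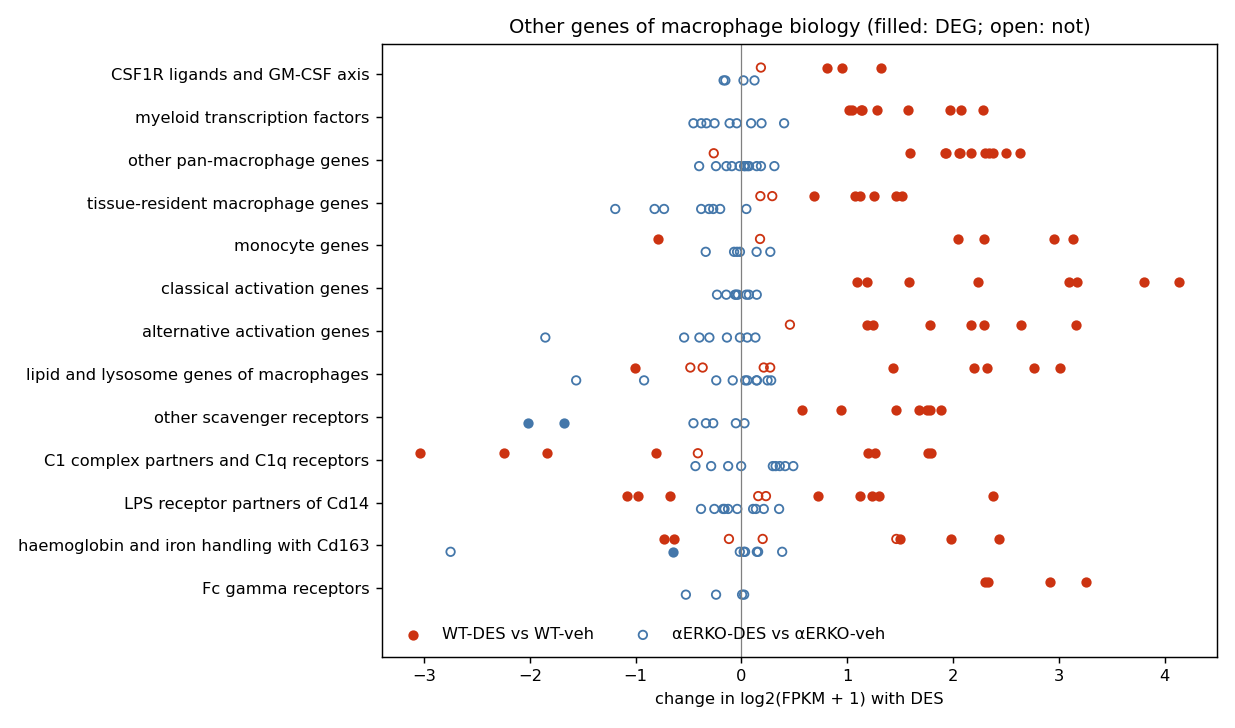
Change in log2(FPKM + 1) with DES (x axis) of the tested genes of 13 lists of macrophage biology (y axis), in WT (red) and in αERKO (blue). Each point is 1 gene, filled where it is a DEG. The 9 transcription factors and 4 Fcγ receptors, of which Spic and Fcgr4 were tested only through WT-DES, lie to the right in WT, and in αERKO 3 points are filled, all to the left.

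In αERKO, 3 of the 83 genes of these lists that could be called were DEGs with DES, all lower, where 1.41% of all tested genes were lower DEGs: the fatty acid receptor Cd36 at -2.01, Scara5 at -1.68 and Slc40a1 at -0.64. Over all tested genes this comparison had 239 DEGs as fitted and 1 to 653 with 1 sample left out, so its calls depend on single samples. Cd36 is abundant in adipocytes and endothelium as well, and the part of these cells in its level was not tested. In αERKO-veh versus WT-veh, 86 genes of the lists could be called, of which 8 were lower and 2 higher DEGs, beside 2.63% lower and 4.5% higher over all tested genes. The lower ones were Csf2rb at -1.14, Lyz2 at -0.81, Pf4 at -0.79, Clec10a at -0.72, Plac8 at -0.71, Tyrobp at -0.66, Fabp5 at -0.59 and Spi1 at -0.53, and the higher ones Lbp at 0.59 and Vcan at 0.54. Csf1r was not a DEG there, at -0.22 (SE 0.20, limma adjusted p = 0.460), nor was Ptprc, at 0.13 (SE 0.22, limma adjusted p = 0.708).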

How the data were processed

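Gene expression was read from 1 table of FPKM for 16 samples. Per the labels and methods, the authors kept reads of average quality above 20, mapped them to mm10 with TopHat 2.0.4 and computed the deposited FPKM with Cufflinks 2.0.2. The annotation and any scaling between libraries are not given in the sources used here. FPKM keep no depth, so precision rests on the spread within groups.

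Genes whose mean FPKM passed 1 in some group (15988) were fitted as log2(FPKM + 1), which understates the change of low genes, in R 4.3.3 with limma 3.58.1: 1 mean per group, eBayes with trend, Benjamini-Hochberg adjustment over all tested genes. The steps were tested on simulated data. Ratios between members were compared by exact permutation tests that went through all arrangements (Python 3.11.15, numpy 2.4.6). Members and lists were chosen with earlier results of these data known. From each list the genes named are those called with the 3 largest rises and 2 largest falls in WT-DES versus WT-veh, and those called in αERKO-veh versus WT-veh or αERKO-DES versus αERKO-veh. Some genes under this rule are not reported here. Other genes named (Il34, Mertk, Ctsb, Ctsd, Ctsl, Serping1, Calr, C1qbp, Cd86, Tlr4 and Ly96) were added for their role after their values were seen, as were Spic, Olr1 and Timd4, for passing the minimum only through WT-DES. The alternatives were other pseudocounts, no minimum or a minimum of 5 FPKM, a model of only the groups compared, sample weights, a replicate block, 3 other scalings, an adjusted p of 0.01, leaving out each sample and, added after the data were seen, a correction for transcript length. Promoter sequences are from RefSeq (GRCm38.p6), with a window for 6 of the 10 members.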

Additional observations from a re-analysis of the deposited data

Results flagged for a closer look

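By Dixon's test at its 95% critical value, 2 of the 40 sets of 4 samples held a sample far from the other 3, and chance gives about 1 in 20. These were Cd68 in WT-DES, where sample 4 had 25.83 FPKM, and Marco in WT-veh, where sample 1 had 0.18 FPKM. The DES response differed between genotypes for the 9 tested members, of which Msr1 was tested only through its level in WT-DES, by the interaction test (limma, adjusted over all tested genes). The interaction was 2.26 for Csf1r, 2.16 for Cd68, 2.86 for Mrc1, 2.00 for Cd163 and 2.47 for Msr1. It was 1.54 for C1qa, 1.51 for C1qb, 1.64 for C1qc and 2.42 for Cd14.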

How the results depend on the processing

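The 9 calls in WT-DES versus WT-veh and in αERKO-DES versus WT-DES held under every alternative run, leaving out any sample included (9 to 9 calls), as did those of the interaction (10 without a minimum on FPKM, with Marco). The 3 C1q calls in αERKO-veh versus WT-veh fell to 0 under quantile normalization, rescaling without the 20 most abundant genes, an adjusted p threshold of 0.01 and the length correction, and were 0 to 3 with 1 sample left out. The cause was not tested. In αERKO-DES versus αERKO-veh there were 2 calls with sample weights (Mrc1 and Cd163) and 0 to 1 with 1 sample left out, the 1 (Mrc1) without αERKO-veh sample 1. In αERKO-DES versus WT-veh there was 1 call with a pseudocount of 0.1, a minimum of 5 FPKM or the length correction, 2 with only the 2 groups compared, 3 with sample weights, and 0 to 4 with 1 sample left out: 4 without WT-veh sample 2, 3 without WT-DES sample 1 or αERKO-DES sample 1, and 1 without αERKO-veh sample 1 or 2. Signs turned only for changes that were not called. In αERKO-veh versus WT-veh, Mrc1 was 0.17 with sample weights, 0.0014 with median-ratio scaling, 0.11 rescaled and -0.19 to 0.10 with 1 sample left out, Cd163 was 0.055 with weights, 0.064 rescaled and -0.14 to 0.11 with 1 left out, and Msr1 was 0.030 with weights. In αERKO-DES versus αERKO-veh, Msr1 was 0.0057 after quantile normalization. C1qa was -0.15 with weights, -0.046 after quantile normalization, -0.066 rescaled and -0.050 with the length correction, C1qb -0.16 with weights and -0.012 rescaled, and C1qc -0.21 with weights, -0.028 with median-ratio scaling, -0.072 after quantile normalization, -0.10 rescaled and -0.081 with the length correction. With 1 sample left out Csf1r ran from -0.22 to 0.019, C1qa from -0.078 to 0.21 and C1qc from -0.092 to 0.13. With 1 in place of 0.1 added, the log2 ratio to Csf1r in WT-DES versus αERKO-DES was -0.014 for Cd68, -0.44 for Cd163 and -1.69 for Marco, and -1.45 for Marco in WT-DES versus WT-veh. Over all tested genes, rescaling moved the share of higher DEGs from 54.7% to 78.6% in WT-DES versus WT-veh, from 63.1% to 92.3% in αERKO-veh versus WT-veh, from 38.0% to 51.8% in αERKO-DES versus WT-veh, from 44.5% to 24.2% in αERKO-DES versus WT-DES and from 52.4% to 78.3% in the interaction, and quantile normalization moved it from 38.0% to 59.2% in αERKO-DES versus WT-veh and left 5 calls in αERKO-DES versus αERKO-veh (239 as fitted). The counts of all DEGs in αERKO-veh versus WT-veh (1139), αERKO-DES versus αERKO-veh (239) and αERKO-DES versus WT-veh (508) ranged from 402 to 1690, 1 to 1119 and 156 to 1002. The replicate numbers did not pair samples (r of deviations over 0.1 in 3 of 24 same-numbered pairs, and 3 of 16 samples correlated best with their own number), and a replicate block gave the same 9, 3, 0, 0, 9 and 9 member calls and 1125 DEGs in αERKO-veh versus WT-veh. Without a minimum on FPKM, Marco had a log2 change of 0.71 in WT-DES versus WT-veh (limma adjusted p = 2.86e-05), at means too low to be a DEG.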
